A study of Mus musculus with 18 samples.

Results

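The comparison concerned JAK2V617F- progenitor cells taken from mice with a JAK2V617F-driven myeloproliferative neoplasm (MPN) and asked how their transcripts differed after TNF receptor 1 (TNFR1) was blocked. Its members were chosen by sample title, as the 3 TNFR1 BA (blocking antibody) JAK2V617F- arrays and the 3 untreated JAK2V617F- arrays. These were 6 of the 18 arrays in the series, and all 10335 probe sets were compared. Bone marrow of Balb/c mice with established disease was cultured for 16 h with IL-3 at 50 ng/mL and SCF at 100 ng/mL, with TNFR1 BA at 10 μg/mL or without antibody. Lin-Kit+ cells were then sorted by GFP, which tags the JAK2V617F retrovirus, so that the GFP- fraction was the JAK2V617F- group. All 6 arrays shared the Balb/c strain, marrow from mice with MPN, the cytokines and the culture time. The study induced the MPN by transplanting donor cells transduced with JAK2V617F. The methods describe 3 independent experiments with marrow of several mice each, and the labels number the arrays of each group 1 to 3. Arrays of the same number were compared as pairs, although the labels do not say that a number marks 1 experiment.

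A JAK2V617F- cell in this model is a GFP- neighbour of MPN cells, exposed to the same marrow and the same culture medium, and not a cell from a healthy mouse. An isotype antibody control was not analysed here, so the antibody itself and the loss of TNFR1 signalling cannot be told apart. The marrow was treated before sorting, and effects on these cells and effects passed on from other cells of the culture cannot be told apart either.

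TNF binds a pair of receptors on blood cells. TNFR1 carries a death domain and recruits the adaptor TRADD, the kinase RIPK1, TRAF proteins and the cIAP ligases, which switch on NF-κB and the JNK and p38 kinases. When this complex is not sustained, FADD and caspase-8 are recruited and the cell can die. TNFR2 lacks a death domain and signals through TRAF2 and the cIAPs. In the marrow, TNF is known to restrain normal progenitors, and NF-κB switches on its own inhibitors, such as IκBα and A20.

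Values were log2 signals per probe set, from 2.22, the lowest value shared by every array, to 15.49 among the 6 arrays. TNFR1 BA arrays had medians of 7.56, 7.56 and 7.41 and held 498, 597 and 439 probe sets at the lowest value, against medians of 7.63, 7.69 and 7.56 and 323, 472 and 416 such probe sets in untreated arrays. Array to array correlations were 0.699 to 0.731 within TNFR1 BA, 0.746 to 0.819 within untreated cells and 0.718 to 0.795 between the groups. The groups did not separate by this measure, since arrays of the 2 treatments resembled each other as much as TNFR1 BA arrays resembled one another. The part that these array differences have in the results below was not tested.

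The progenitor label was checked against 10 stem and progenitor markers, all measured. Myb, a transcription factor of immature blood cells, was between 12.44 and 12.64 with TNFR1 BA and between 12.10 and 12.83 in untreated cells. Lmo2, a factor of blood stem cells, was between 11.76 and 12.26 with TNFR1 BA and between 11.86 and 12.27 in untreated cells. Kit itself, the receptor used in the sort, gave 5.50, 8.78 and 9.20 with TNFR1 BA, against 8.07, 8.64 and 4.92 in untreated cells, so its signal varied over more than 3 log2 units within each group. Flt3 gave 6.44, 3.83 and 3.12 with TNFR1 BA and 7.45, 6.62 and 4.46 in untreated cells. Meis1, also on the list, gave 2.22, 10.12 and 6.24 with TNFR1 BA and 2.33, 2.27 and 2.24 in untreated cells. Of 8 genes listed for lineage antigens, 3 were measured (Cd8a, Ptprc and Itgam), and 5 were not analysed here. Ptprc encodes CD45, which the study's human stem cell gate also carried, so it is no lineage antigen by itself. Itgam gave 5.94, 3.18 and 6.82 with TNFR1 BA and 4.39, 3.16 and 5.59 in untreated cells. Cd8a, given below, reached 6.10 in untreated cells. The 5 genes of highest mean signal were S100a9, S100a8, Rpl37a, Rps3a1 and Tmsb4x. S100a8 and S100a9 encode the calprotectin subunits of granulocytes and monocytes. Signals of different probe sets do not rank their transcripts.

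Limma, with the replicate number as a block and p-values adjusted over all probe sets by Benjamini-Hochberg, placed 0 of 10335 probe sets (0.0%) past an adjusted p of 0.05. The lowest adjusted p was 0.446, for Chd9, and that of each other gene named below, in this comparison, rounded to 1.0. Before adjustment, 169 probe sets were higher with TNFR1 BA (1.64%) and 276 were lower (2.67%) at p under 0.05, together 4.31% of those tested. The 3 TNFR1 BA arrays did not overlap the 3 untreated arrays for 337 higher (3.26%) and 516 lower (4.99%) probe sets. All 3 pairs differed by more than 1 log2 unit upward for 174 (1.68%) and downward for 262 (2.54%). An exact permutation test of 3 against 3 arrays cannot go below p = 0.1, so single genes rest on the limma fit. Nothing in this comparison is therefore called as raised or lowered, and the genes below are given by their values. Without the replicate block, 0 probe sets passed and 147 were higher and 238 lower at an unadjusted p under 0.05.

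The differences were centred slightly below 0, with a median of -0.09 and 45.0% of probe sets above 0. The quartiles of the differences were -0.76 and 0.52. Of those with an unadjusted p under 0.05, 37.98% were higher with the values as deposited and 47.0% after quantile normalization of the arrays, which also brought the median to -0.002. A lean of a gene list of about 0.1 log2 unit is thus the size of the shift between the arrays.

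**Figure D1:**
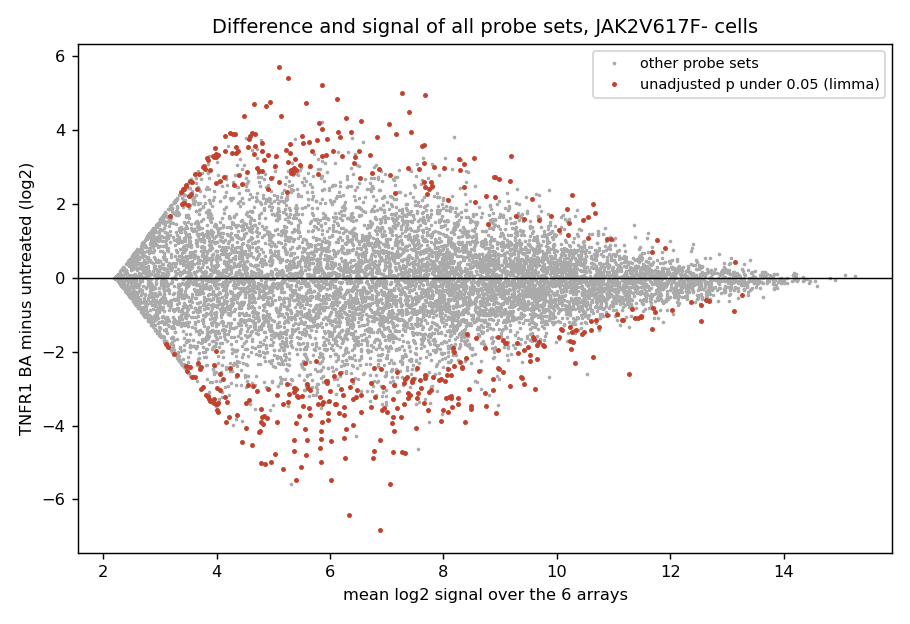
Difference between TNFR1 BA and untreated JAK2V617F- cells (vertical axis, log2) against the mean log2 signal over the 6 arrays (horizontal axis), with 1 point per probe set and red points for an unadjusted limma p under 0.05. Differences were widest between signals of 4 and 8 and narrow above 12, where 9 of 519 probe sets had an unadjusted p under 0.05.

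The size of the differences depended on the signal. Among 2047 probe sets with a mean signal of 4 to 6, the median standard deviation within groups was 1.95, 50.6% differed by more than 1 log2 unit and 7.28% had an unadjusted p under 0.05. Among 519 probe sets above 12 the standard deviation was 0.30, 0.193% differed by more than 1 log2 unit and 1.73% had an unadjusted p under 0.05. The most precise statements therefore concern probe sets of high signal. The median 95% interval extended 2.46 log2 units to each side over all probe sets and 1.08 to each side over the 1903 with a mean signal of 10 or more.

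The 3 replicate pairs shared little of the difference. Across probe sets, the pair differences correlated by 0.003 (replicates 1 and 2), 0.025 (1 and 3) and 0.005 (2 and 3). These pairs share no array. For probe sets with a mean signal of 10 or more the same correlations were 0.018, 0.016 and 0.066. The standard deviation of the 3 pair differences had a median of 1.3997, and the difference of means was within 1 log2 unit for 65.8% of probe sets.

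**Figure D2:**
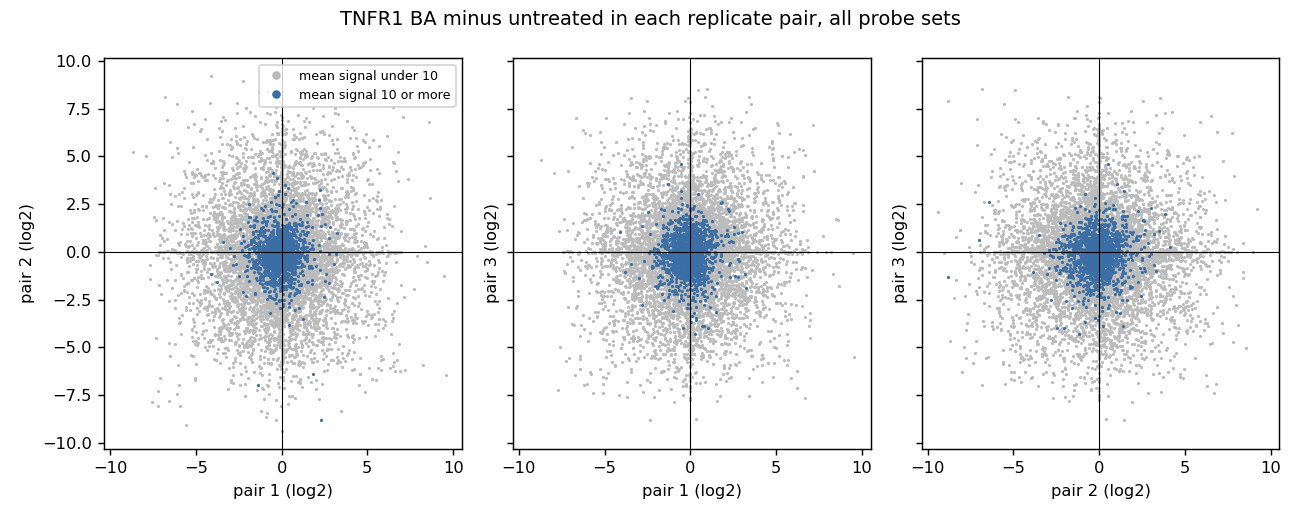
TNFR1 BA minus untreated (log2) in 1 replicate pair against another, for all probe sets, with blue points for a mean log2 signal of 10 or more. The clouds are round and centred near 0, with correlations of 0.003, 0.025 and 0.005 across probe sets.

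The genes with the smallest unadjusted p among those whose groups did not overlap were dominated, on the higher side, by transcripts near the lowest value in untreated cells. Over the 12 higher genes, 35 of 36 untreated values were under 4. Chd9, a chromodomain helicase that acts on chromatin, gave 6.63, 7.76 and 7.23 with TNFR1 BA, against 2.22, 2.22 and 3.18 in untreated cells. The difference was 4.66 ± 0.83 (SE, n = 3 arrays each), with a 95% interval from 2.90 to 6.43. Each of the 3 pairs differed by more than 4 log2 units, and no treated array came near an untreated one.

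Arg1, the arginase of alternatively activated macrophages and of myeloid suppressor cells, gave 9.10, 7.19 and 9.35 with TNFR1 BA, against 5.68, 2.22 and 3.24 in untreated cells. Rrbp1, a ribosome receptor of the endoplasmic reticulum, gave 6.10, 9.05 and 10.25 with TNFR1 BA, against 3.17, 3.17 and 3.42 in untreated cells. Alg12, a mannosyltransferase of N-glycan assembly, gave 8.40, 7.78 and 7.69 with TNFR1 BA, against 2.72, 2.22 and 2.72 in untreated cells. These 3 genes had signals well above the low range on every TNFR1 BA array and, apart from Arg1 replicate 1, near the lowest value on every untreated array. Their differences were 4.83 ± 1.42, 5.21 ± 1.49 and 5.41 ± 1.58 (SE).

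Cwc25 and Srsf11, both pre-mRNA splicing factors, were higher by 4.73 and 4.76, with intervals from 2.15 to 7.31 and from 1.79 to 7.73. Atg5, required to extend the autophagosome membrane, gave 6.73, 7.77 and 4.22 with TNFR1 BA and 2.28, 2.49 and 2.28 in untreated cells. Them4, Camk2d, Sema6d and Tdo2 likewise had replicates 1 and 2 clearly above the untreated arrays and replicate 3 the lowest of the TNFR1 BA arrays, between 2.89 and 3.80. Ehhadh, a peroxisomal enzyme of fatty acid oxidation, was at the lowest value on all 3 untreated arrays and at 3.63, 4.82 and 6.10 with TNFR1 BA.

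**Figure D3:**
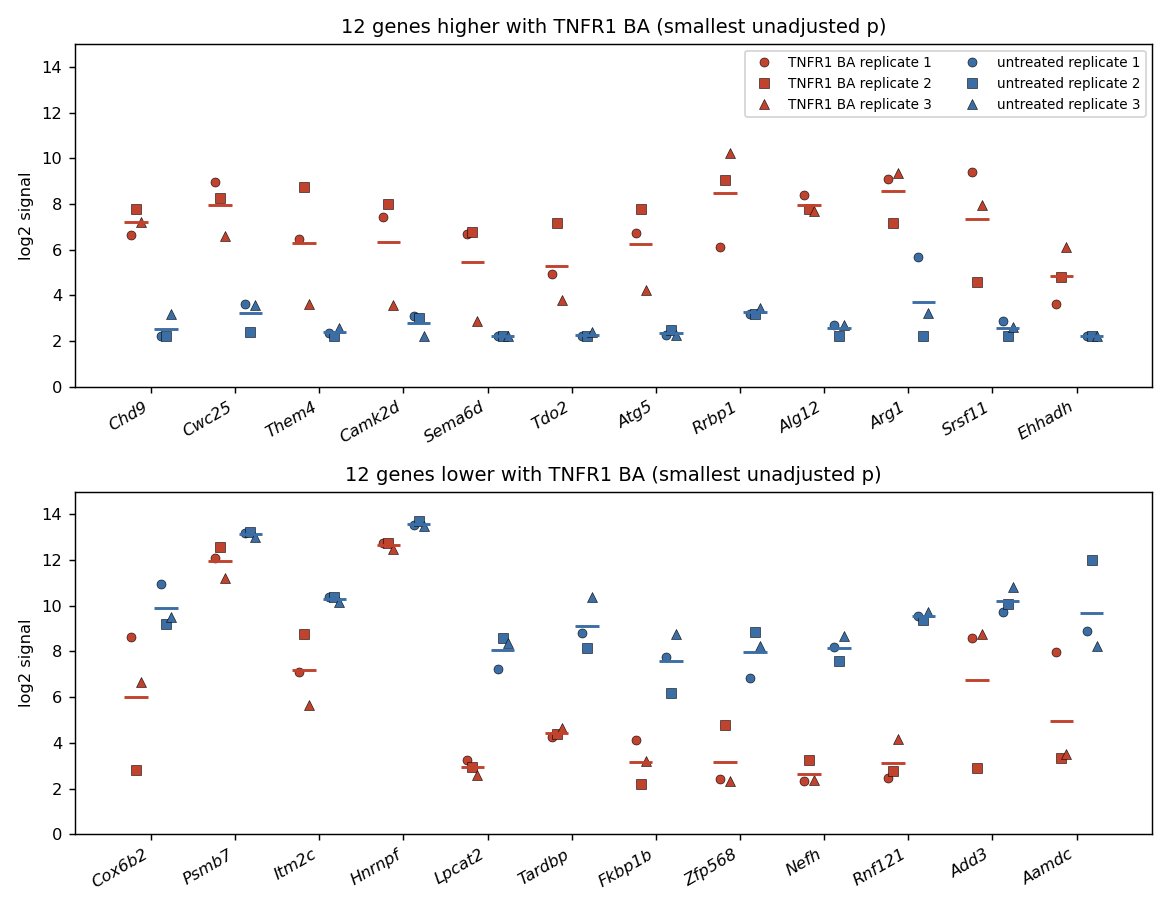
Log2 signal (vertical axis) of the 12 higher and 12 lower genes of smallest unadjusted p among those whose groups did not overlap, with TNFR1 BA arrays in red to the left of untreated arrays in blue, symbols for the replicate and bars for the group mean. Untreated values of the 12 higher genes lie under 4 for 35 of 36 points, and the 2 lower genes Psmb7 and Hnrnpf stay above 11 on every array.

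On the lower side, 2 of the 12 genes had mean signals over 10 in both groups. Psmb7, a catalytic subunit of the 20S proteasome, gave 12.11, 12.59 and 11.20 with TNFR1 BA, against 13.19, 13.22 and 13.01 in untreated cells. The difference was -1.17 ± 0.27 (SE), with an interval from -1.75 to -0.59. Hnrnpf, an RNA-binding protein of splicing, gave 12.76, 12.75 and 12.49 with TNFR1 BA, against 13.54, 13.71 and 13.48 in untreated cells, a difference of -0.91 ± 0.21 (SE) with an interval from -1.36 to -0.45. For both genes the untreated arrays lay within 0.3 log2 units of each other, and every TNFR1 BA array was below them.

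Tardbp, which encodes the RNA-binding protein TDP-43, was even within the treated arrays, at 4.26, 4.39 and 4.63 with TNFR1 BA and 8.83, 8.13 and 10.40 in untreated cells. Lpcat2, an acyltransferase of membrane phospholipids in inflammatory cells, gave 3.25, 2.94 and 2.58 with TNFR1 BA, against 7.22, 8.57 and 8.35 in untreated cells. Rnf121, a ubiquitin ligase of the secretory pathway, gave 2.46, 2.76 and 4.16 with TNFR1 BA, against 9.53, 9.37 and 9.74 in untreated cells. These 3 had differences of -4.69, -5.12 and -6.42. With TNFR1 BA, Lpcat2 and replicates 1 and 2 of Rnf121 lay within about 1 log2 unit of the lowest value, while Tardbp lay more than 2 log2 units above it on every array. Low treated signals were also seen for Nefh, Zfp568 and Fkbp1b, and 6 of the 12 lower genes had all TNFR1 BA values under 5. Itm2c was lower by 3.12 on the log2 scale, and its untreated arrays were tightly grouped at 10.37, 10.37 and 10.14. Cox6b2, Add3 and Aamdc differed by -3.87, -3.46 and -4.75 but spread over more than 4 log2 units among the TNFR1 BA arrays.

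The ligands and receptors of the pathway were measured first. Tnfrsf1a, which encodes the blocked receptor TNFR1, gave 8.66, 10.98 and 10.56 with TNFR1 BA, against 9.63, 9.08 and 9.35 in untreated cells. The difference was 0.71 with an interval from -0.93 to 2.36, and pair 1 ran the other way. Tnfrsf1b, which encodes TNFR2, gave 11.26, 10.59 and 12.17 with TNFR1 BA and 11.50, 9.43 and 11.86 in untreated cells, a difference of 0.41 with an interval from -1.06 to 1.88. Both receptor transcripts were present on all 6 arrays, and the antibody acts on the protein, so these values do not measure the block. Ltbr, the lymphotoxin beta receptor, differed by 1.26 with an interval from -0.85 to 3.36. Ltb was near the lowest value throughout, and Tnf and Lta were not analysed here.

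Of 39 measured genes of the receptors, the receptor complex and NF-κB, 38 had a 95% interval that held 0. The exception was Traf5, an adaptor shared by several TNF family receptors. It gave 6.42, 2.49 and 5.67 with TNFR1 BA, against 2.47, 2.62 and 2.28 in untreated cells, a difference of 2.40 ± 0.98 (SE) with an interval from 0.33 to 4.47. The groups overlapped, because replicate 2 was low in both. Traf5 was thus 1 of 39 at an unadjusted p under 0.05, beside 1.64% of all probe sets higher. The half-width of the intervals had a median of 2.197, and only that of Sharpin was under 1 log2 unit.

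**Figure D4:**
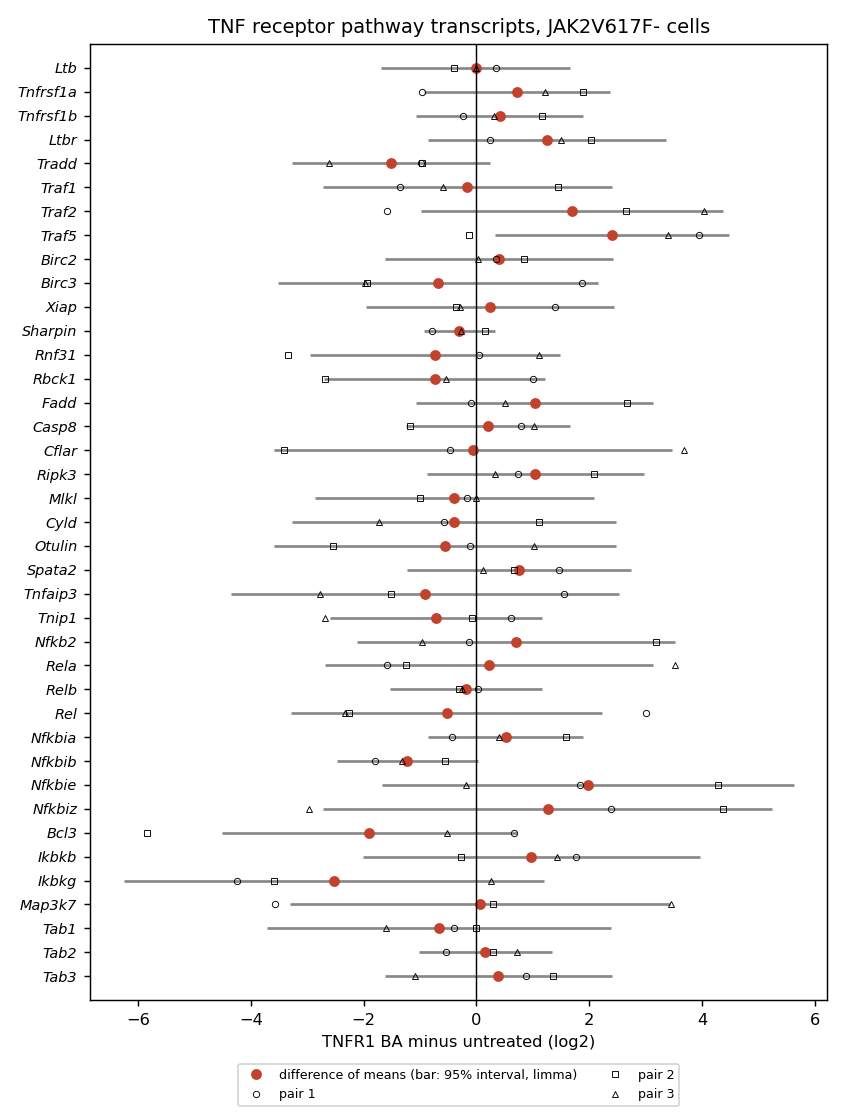
TNFR1 BA minus untreated (log2, horizontal axis) for 39 receptor, adaptor and NF-κB transcripts, with red points for the difference of means, bars for its 95% limma interval and open symbols for each replicate pair. Every bar but that of Traf5 crosses 0, and the 3 pairs of 1 gene often lie on both sides of it.

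Among the adaptors, Tradd, which links the death domain of TNFR1 to RIPK1 and TRAF2, gave 8.26, 9.87 and 8.17 with TNFR1 BA, against 9.25, 10.83 and 10.78 in untreated cells. It was lower in 3 of 3 pairs, with a difference of -1.52 and an interval from -3.27 to 0.24. Traf2 was at 3.84, 7.76 and 8.03 with TNFR1 BA and 5.42, 5.12 and 3.996 in untreated cells, with pair 1 opposite to the others. The ligases Birc2 and Birc3, which encode cIAP1 and cIAP2, differed by 0.40 and -0.68, with intervals from -1.63 to 2.42 and from -3.52 to 2.16. Sharpin, a chain of the linear ubiquitin ligase, gave 12.02, 12.70 and 11.96 with TNFR1 BA and 12.82, 12.54 and 12.23 in untreated cells. Its interval, from -0.93 to 0.33, was the narrowest of the pathway.

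In the death arm, Ripk3, the kinase of necroptosis, gave 8.31, 8.75 and 8.08 with TNFR1 BA, against 7.58, 6.66 and 7.75 in untreated cells. It was the sole member of the complex list whose groups did not overlap upward, 1 of 20 measured, beside 3.26% of all probe sets. Its difference was 1.05 with an interval from -0.87 to 2.96. With TNFR2 BA in JAK2V617F- cells Ripk3 gave 8.85, 10.22 and 9.40. Mlkl, the effector that RIPK3 phosphorylates, stayed under 3.5 on all 6 arrays. Fadd and Casp8 differed by 1.03 and 0.21, and Cflar, the caspase-8 inhibitor, by -0.07 with an interval from -3.59 to 3.46. Over the 20 measured genes of 21 listed, the median difference was -0.23, with 8 above 0 and 12 below.

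Xiap, an inhibitor of caspases, and Mapk8, which encodes JNK1, are named in the text of the study. Xiap gave 11.69, 8.52 and 11.26 with TNFR1 BA, against 10.30, 8.87 and 11.55 in untreated cells, a difference of 0.25 with an interval from -1.95 to 2.44. Mapk8 gave 10.14, 8.17 and 10.48 with TNFR1 BA, against 10.27, 10.26 and 8.61 in untreated cells, a difference of -0.12 with an interval from -2.96 to 2.72. In both genes a replicate stood apart by about 2 log2 units, and the intervals allow a difference of several fold in either direction. Itm2a, Prdx2 and Asb17, also named there, were at or near the lowest value on most of the 6 arrays, with differences of -0.80, -0.15 and -0.17.

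Of the NF-κB factors, inhibitors and kinases, 15 of 18 listed were measured, with a median of 0.16, 9 above 0 and 6 below, and 0 in either direction at an unadjusted p under 0.05. Nfkbia, which encodes IκBα, gave 10.76, 12.13 and 11.50 with TNFR1 BA, against 11.20, 10.54 and 11.09 in untreated cells, a difference of 0.52 with an interval from -0.86 to 1.89. Nfkbib, which encodes IκBβ, was lower in 3 of 3 pairs, at 7.21, 9.20 and 8.61 with TNFR1 BA and 9.01, 9.76 and 9.93 in untreated cells. Its difference was -1.23 ± 0.59 (SE) with an interval from -2.48 to 0.02. Tnfaip3, which encodes A20, differed by -0.91 with an interval from -4.35 to 2.53, and Tnip1, its partner, by -0.72 with an interval from -2.59 to 1.16. Rela, Rel, Relb and Nfkb2 differed by 0.23, -0.53, -0.18 and 0.70, each with an interval of more than 1 log2 unit to both sides. Tab1, an activator of the kinase TAK1, was the sole member whose groups did not overlap, 1 of 15, beside 4.99% of all probe sets lower. It was at 4.14 on all 3 TNFR1 BA arrays and 4.53, 4.15 and 5.74 in untreated cells.

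Because Nfkbia and Tnip1 are known targets of NF-κB, the windows around their starts are shown with each match to a short κB-like motif in capitals. The motif was GGG, then any 5 bases, then CC, searched on both strands, with overlapping matches joined. They are RefSeq windows of GRCm38.p6, from 250 bases before to 50 after the start, both on the minus strand, at chr12:55492598-55492897 (Nfkbia) and chr11:54962891-54963190 (Tnip1), printed 5′ to 3′ on the strand of the gene.
Nfkbia: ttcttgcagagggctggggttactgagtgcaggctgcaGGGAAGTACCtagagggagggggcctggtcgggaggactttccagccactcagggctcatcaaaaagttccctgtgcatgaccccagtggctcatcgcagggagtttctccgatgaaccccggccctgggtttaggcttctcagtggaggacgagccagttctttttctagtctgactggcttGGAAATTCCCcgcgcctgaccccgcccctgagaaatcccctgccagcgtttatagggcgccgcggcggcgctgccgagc
Tnip1: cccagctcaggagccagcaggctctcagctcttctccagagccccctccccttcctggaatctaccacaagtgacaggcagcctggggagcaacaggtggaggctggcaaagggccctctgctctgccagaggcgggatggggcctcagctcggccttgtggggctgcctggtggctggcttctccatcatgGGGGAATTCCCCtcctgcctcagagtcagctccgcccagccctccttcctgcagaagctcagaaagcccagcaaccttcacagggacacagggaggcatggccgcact
Nfkbia held 2 matches and Tnip1 a run of 3 overlapping ones. The motif is short and stood in 50.8% of all 32851 windows, so a match describes the letters and does not by itself show binding. Binding was not measured. Of 7908 measured genes with a window, counting any of their starts, the 5700 with the motif had a median difference of -0.07, with 1.81% higher and 2.72% lower at an unadjusted p under 0.05. The 2208 without it had a median of -0.11, with 1.13% higher and 2.49% lower.

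The wider NF-κB target list had 28 of 35 genes measured, 10 above 0 and 18 below, with a median of -0.67. The medians within the pairs were -0.06, -0.20 and -0.11, near that of all probe sets. Il1b, the inflammatory cytokine, was the only target at an unadjusted p under 0.05 (1 of 28, beside 2.67% of all probe sets lower), at 3.41, 5.79 and 2.22 with TNFR1 BA and 8.999, 8.83 and 2.22 in untreated cells. Its difference of -2.88, with an interval from -5.70 to -0.05, came from 2 pairs, as the third was at the lowest value in both groups. Icam1, an adhesion molecule, and Tnfaip2, both chosen after their values were seen, differed by -1.09 and -1.46 with intervals that held 0.

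In the JNK, p38 and AP-1 list, 2 of 15 measured genes were lower at an unadjusted p under 0.05 and 0 were higher, beside 2.67% and 1.64% of all probe sets. Jun, the AP-1 subunit activated by JNK, gave 6.77, 3.02 and 4.50 with TNFR1 BA, against 8.75, 6.48 and 8.95 in untreated cells, a difference of -3.29 with an interval from -5.82 to -0.77. Fosl2, another AP-1 subunit, gave 7.36, 2.45 and 3.71 with TNFR1 BA, against 8.53, 9.56 and 5.93 in untreated cells, a difference of -3.50 with an interval from -6.30 to -0.70. Both were lower in 3 of 3 pairs, and in both a treated array overlapped the untreated ones. Dusp1, a phosphatase of these kinases chosen after its values were seen, did not overlap, at 7.87, 7.85 and 8.14 with TNFR1 BA and 8.47, 9.25 and 9.49 in untreated cells (difference -1.12, interval from -3.21 to 0.98). The groups did not overlap for 3 of the 15, all lower, beside 4.99% of all probe sets. Fos was 1 of these 3, although it was near the lowest value in both groups. The median of the list was -0.28, with 5 above 0 and 10 below.

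Genes of mitochondrial apoptosis and caspases leaned lower, with 13 of 15 measured below 0, a median of -0.81 and pair medians of -0.39, -0.77 and -1.24, beside -0.09 for all probe sets. Of these, 1 was lower and 0 were higher at an unadjusted p under 0.05, beside 2.67% and 1.64% of all probe sets. The groups did not overlap for 3 of the 15, all lower, beside 4.99% of all probe sets. Diablo, which encodes the mitochondrial antagonist of XIAP and the cIAPs, gave 8.64, 8.80 and 9.09 with TNFR1 BA, against 9.89, 11.33 and 10.90 in untreated cells. The groups did not overlap, and the difference was -1.86 ± 0.65 (SE) with an interval from -3.23 to -0.49. Birc5, the mitotic protein survivin, gave 11.52, 11.63 and 11.38 with TNFR1 BA and 12.44, 12.40 and 12.27 in untreated cells, a difference of -0.86 with an interval from -1.90 to 0.19. Pmaip1, which encodes the pro-death protein NOXA, was likewise without overlap, at 9.52, 9.22 and 9.80 with TNFR1 BA and 10.11, 9.99 and 11.04 in untreated cells. Of these 3, Diablo and Pmaip1 encode proteins that promote death, and Birc5 encodes a member of the inhibitor of apoptosis family. Mcl1, a survival protein that NOXA binds, ran the other way in 3 of 3 pairs, at 13.06, 13.09 and 12.41 with TNFR1 BA and 12.41, 12.09 and 11.34 in untreated cells (difference 0.90, interval from -0.04 to 1.84).

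In the SCF, IL-3 and JAK-STAT list, 19 of 22 measured genes were below 0, with a median of -0.65 and pair medians of -0.27, -1.53 and -1.07. At an unadjusted p under 0.05, 0 were higher and 0 lower. The groups did not overlap for 2 lower and 1 higher of the 22, beside 4.99% and 3.26% of all probe sets. Jak2 itself, chosen after its values were seen, did not overlap, at 7.86, 7.63 and 7.18 with TNFR1 BA and 9.94, 8.86 and 8.33 in untreated cells. Its difference was -1.49 with an interval from -3.83 to 0.86. Pim2, a survival kinase induced by STAT5, did not overlap in the other direction, at 7.44, 6.002 and 7.91 with TNFR1 BA and 5.28, 5.83 and 5.37 in untreated cells. Stat5b was low in replicates 2 and 3 with TNFR1 BA, at 6.57, 3.12 and 3.15 against 6.47, 8.23 and 7.02 in untreated cells, and Stat5a differed by -1.91. Cish, a STAT5 target chosen after its values were seen, was at 10.41, 9.14 and 8.98 with TNFR1 BA and 10.45, 10.12 and 10.04 in untreated cells.

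**Figure D5:**
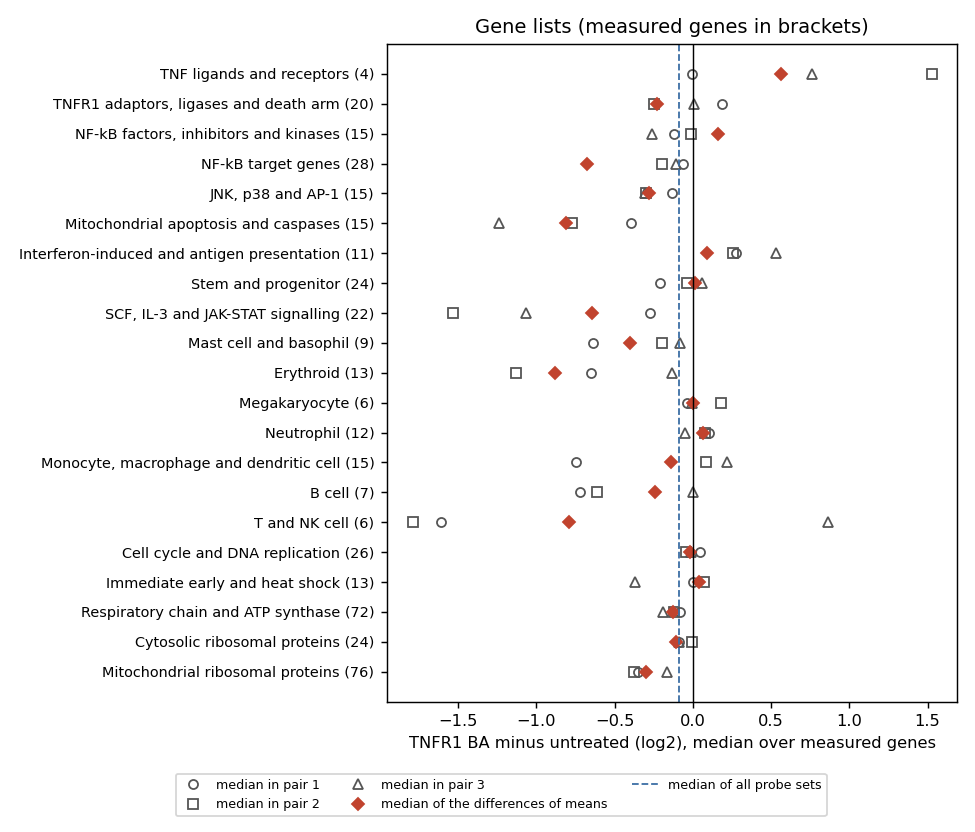
Median of TNFR1 BA minus untreated (log2, horizontal axis) over the measured genes of each list, with red diamonds for the differences of means, open symbols for the replicate pairs and a dashed line for the median of all probe sets at -0.09. Left of the line in all 3 pairs lie the apoptosis, JAK-STAT, erythroid and mitochondrial ribosomal lists and the JNK, p38 and AP-1 list. The neutrophil and cell cycle lists lie close to 0.

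The erythroid list had a median of -0.88, with 5 of 13 measured above 0 and 7 below. Klf1, the master regulator of globin genes, gave 9.28, 4.06 and 6.55 with TNFR1 BA, against 10.42, 10.49 and 8.71 in untreated cells, a difference of -3.24 ± 1.06 (SE) with an interval from -5.50 to -0.99. Epor, the erythropoietin receptor, gave 2.35, 2.22 and 4.92 with TNFR1 BA, against 5.71, 4.92 and 9.58 in untreated cells. Car1, a carbonic anhydrase of red cell precursors, gave 10.43, 8.34 and 10.13 with TNFR1 BA, against 11.15, 10.64 and 10.42 in untreated cells. Gata1 did not overlap, at 7.33, 5.14 and 7.15 with TNFR1 BA and 7.35, 7.71 and 7.86 in untreated cells, with a gap between the groups of under 0.1 log2 unit. All 4 were lower in 3 of 3 pairs. The 5 members above 0 are not shown by gene, and the largest of their differences was 0.59. Gata1 was the 1 of 13 without overlap, beside 4.99% of all probe sets lower. Klf1 was 1 of 13 at an unadjusted p under 0.05, beside 2.67% of all probe sets lower. In sorted bulk cells, fewer cells of a type and less RNA per cell cannot be told apart. The summed level of the erythroid list, as its mean per array, was 6.18 to 7.89 with TNFR1 BA and 7.26 to 8.32 in untreated cells.

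The neutrophil list had a median difference of 0.07 over 12 of 16 measured, with 8 above 0 and 4 below. Its single genes ranged from -2.06 to 2.23. S100a8 gave 15.29, 14.76 and 15.32 with TNFR1 BA, against 15.19, 14.72 and 15.26 in untreated cells, with an interval from -0.30 to 0.44. That interval holds for the signal, which lay near the highest value of the 6 arrays, 15.49. Whether signals so high still follow the amount of RNA was not tested. Elane, neutrophil elastase of promyelocytes, gave 13.38, 13.39 and 14.12 with TNFR1 BA, against 13.48, 13.28 and 14.14 in untreated cells, with an interval from -0.65 to 0.65. For 2 granule genes the values differed more between replicate numbers than between treatments. Camp, of the later secondary granules, gave 13.31, 9.71 and 12.66 with TNFR1 BA, against 13.06, 8.002 and 13.03 in untreated cells. Ltf gave 12.06, 8.84 and 10.52 with TNFR1 BA, against 11.39, 6.15 and 11.53 in untreated cells. Replicate 2 was the lowest of its group for Camp, Ltf, Lcn2 and Ngp in both treatments.

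Mast cell and basophil genes were also present. Cpa3, a protease of mast cells and basophils, gave 10.58, 11.78 and 12.59 with TNFR1 BA, against 11.22, 11.98 and 12.68 in untreated cells. Mcpt8, of basophils, gave 11.11, 12.21 and 11.54 with TNFR1 BA, against 11.63, 12.42 and 12.001 in untreated cells. The mast cell tryptases Tpsab1 and Tpsb2 were near the lowest value on all but 1 array. The list had 9 of 12 measured, 0 in either direction at an unadjusted p under 0.05, and a median of -0.40.

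Monocyte, macrophage and dendritic cell genes had a median of -0.14, with 7 of 15 above 0 and 8 below. At an unadjusted p under 0.05, 1 was higher and 0 lower, beside 1.64% and 2.67% of all probe sets. The groups did not overlap for 1 of the 15, Mrc1, beside 3.26% of all probe sets higher. Mrc1, the mannose receptor, gave 10.89, 10.00 and 11.43 with TNFR1 BA, against 7.20, 9.06 and 9.24 in untreated cells, a difference of 2.27 with an interval from -0.19 to 4.74. Cx3cr1, the fractalkine receptor, gave 2.26, 7.99 and 9.05 with TNFR1 BA, against 2.26, 5.19 and 2.26 in untreated cells (difference 3.20, interval from 0.24 to 6.16). Csf1r, the defining receptor of the lineage, gave 12.29, 10.51 and 10.37 with TNFR1 BA, against 11.44, 12.34 and 2.23 in untreated cells. Other members differed the other way, with Cd14 at 2.31, 2.64 and 6.67 with TNFR1 BA and 7.69, 5.001 and 2.28 in untreated cells, and Irf8 at 5.77, 7.86 and 7.29 with TNFR1 BA and 9.07, 8.32 and 7.37 in untreated cells. The mean level of the list per array was 8.10 to 8.41 with TNFR1 BA and 6.83 to 8.86 in untreated cells.

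Other cell types gave no more than single genes. Cd8a was at 2.22, 2.81 and 2.56 with TNFR1 BA, against 6.10, 5.81 and 2.56 in untreated cells (difference -2.29, interval from -4.10 to -0.49), and was 1 of 6 measured T and NK cell genes at an unadjusted p under 0.05, beside 2.67% of all probe sets lower. B cell genes (7 measured) and megakaryocyte genes (6 measured) had 0 such members and medians of -0.24 and 0.00. Among the 24 measured stem and progenitor genes, the median was 0.01. Meis1, a homeobox factor of stem cells, was the 1 member of 24 at an unadjusted p under 0.05, beside 1.64% of all probe sets higher, at 2.22, 10.12 and 6.24 with TNFR1 BA and 2.33, 2.27 and 2.24 in untreated cells. Cd34 was lower in 3 of 3 pairs, at 10.48, 10.85 and 7.12 with TNFR1 BA and 11.01, 11.74 and 9.53 in untreated cells (difference -1.28, interval from -2.58 to 0.03).

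Further lists had medians within about 0.1 log2 unit of 0. Cell cycle and DNA replication genes had a median of -0.02 over 26 measured, with pair medians of 0.04, -0.05 and -0.01. The interferon-induced and antigen presentation list had a median of 0.09 over 11 of 25 measured, with pair medians of 0.27, 0.26 and 0.53, and immediate early and heat shock genes one of 0.04 over 13 that include Jun. Cytosolic ribosomal protein genes had a median of -0.11 (24 measured, 18 below 0). None of the members of the cell cycle, interferon and cytosolic ribosomal lists had an unadjusted p under 0.05.

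Both mitochondrial lists had medians a little below 0, beside -0.09 for all probe sets. Of 72 respiratory chain and ATP synthase genes, 52 were below 0, with a median of -0.13, so their lean was about the size of the shift between the arrays. After quantile normalization their median was -0.09, with 47 below 0, beside -0.002 for all probe sets. At an unadjusted p under 0.05, 1 was higher and 2 lower, beside 1.64% and 2.67% of all probe sets. Ndufs8, a subunit of complex I, gave 10.93, 10.42 and 9.80 with TNFR1 BA, against 12.50, 11.28 and 10.37 in untreated cells, a difference of -0.999 with an interval from -1.95 to -0.05. Cox6a2, the muscle form of a complex IV subunit, was the higher one, at 8.44, 6.66 and 8.52 with TNFR1 BA and 4.49, 2.61 and 4.42 in untreated cells. Of 76 mitochondrial ribosomal protein genes, 50 were below 0, with a median of -0.30 and pair medians of -0.35, -0.38 and -0.16. After quantile normalization the median was -0.25, with 46 below 0. The groups did not overlap for 10 lower and 1 higher of the 76, beside 4.99% and 3.26% of all probe sets, and 1 in each direction had an unadjusted p under 0.05, against the same shares as for the respiratory chain. Mrpl43 gave 9.04, 10.37 and 8.32 with TNFR1 BA, against 11.09, 11.30 and 10.13 in untreated cells, and Mrps2, the higher one, gave 12.26, 11.66 and 10.23 with TNFR1 BA, against 10.15, 9.74 and 9.32 in untreated cells.

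The response of JAK2V617F- cells was then set against that of JAK2V617F+ cells from the same cultures, by the difference of the 2 effects in the same fit. The JAK2V617F+ comparison had 3 TNFR1 BA and 2 untreated arrays, and shared no array with that of JAK2V617F- cells. Across probe sets the 2 differences correlated by -0.002, and of the 24 genes named above by rule, 14 had the same sign in JAK2V617F+ cells. Of 10335 probe sets, 1 (0.00968%) passed an adjusted p of 0.05, and 202 (1.95%) had a more positive and 424 (4.1%) a more negative difference in JAK2V617F- cells at an unadjusted p under 0.05. The gene was Psmb7. In JAK2V617F+ cells it gave 13.16, 13.72 and 13.20 with TNFR1 BA, against 11.59 and 11.80 in untreated cells, opposite to its values in JAK2V617F- cells. The difference of the effects was -3.05 ± 0.41 (SE, limma adjusted p = 0.0195), and the call was lost without the replicate block (limma adjusted p = 0.576) and in 7 of 9 fits that left out an array or a replicate number.

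The next genes of that contrast missed the threshold. Cry2, a repressor of the circadian clock, gave 8.63, 8.12 and 7.59 with TNFR1 BA and 8.999, 9.42 and 8.72 in untreated JAK2V617F- cells. In JAK2V617F+ cells it gave 9.69, 9.29 and 9.53 with TNFR1 BA, against 3.24 and 3.37 in untreated cells, and the difference of the effects was -7.09 ± 1.19 (SE, limma adjusted p = 0.116). Its low values were those of untreated JAK2V617F+ cells. For Chd9, the JAK2V617F+ cells stayed between 2.22 and 2.27 with TNFR1 BA, against 3.47 and 2.22 in untreated cells, and the difference of the effects was 5.49 ± 1.26 (SE, limma adjusted p = 0.705). Dpf2 and Cfdp1 differed by 8.88 and -2.97 at the same adjusted p.

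Among the 39 pathway genes, 2 (Sharpin and Bcl3) had an unadjusted p under 0.05 for this difference. They were at -1.53 and -4.10, with limma adjusted p of 0.705 and 0.809. Over all probe sets, 4.1% were below 0 and 1.95% above 0 at that unadjusted p. Itm2a and Prdx2 had differences of the effects of 5.31 and 4.78, as they were near the lowest value on most JAK2V617F- arrays (untreated replicate 2 of Itm2a, at 4.72, was not) and lower by 6.11 and 4.93 on the log2 scale with TNFR1 BA in JAK2V617F+ cells. Neither difference of effects passed adjustment.

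TNFR1 BA was also set directly against TNFR2 BA in JAK2V617F- cells, since both share the untreated arrays. No probe set of 10335 passed an adjusted p of 0.05 (0.0%), with 188 higher (1.82%) and 279 lower (2.7%) with TNFR1 BA at an unadjusted p under 0.05 and a lowest adjusted p of 0.313. Chd9 was at 2.22, 2.23 and 4.504 with TNFR2 BA, a difference of 4.22 ± 0.83 (SE) between the antibodies. Cox6b2 was at 10.83, 9.49 and 10.71 with TNFR2 BA, a difference of -4.32 ± 0.84 (SE). Rnf157, at 2.22, 2.24 and 2.22 with TNFR1 BA and 6.24, 8.11 and 7.72 with TNFR2 BA, had the same values after TNFR1 BA as in untreated cells. Frg1 differed by -1.46, and Tnk2 by 6.14 with TNFR2 BA values of 11.02, 2.22 and 2.27. For the pathway, Mlkl was 1 of 39 at an unadjusted p under 0.05, at -2.56, beside 2.7% of all probe sets lower.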

How the data were processed

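The authors hybridised amplified cDNA to Affymetrix mouse arrays. They deposited a log2 signal for each probe set and array, for which the submitters' processing notes name Affymetrix Expression Console. The table has no detection calls, and carries a normalization and a selection of probe sets not given in the sources used here. Precision is limited by how many arrays there are.

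Gene symbols came from the platform annotation, updated by Entrez ID to GRCm38.p6: 9651 probe sets had 1 symbol, 27 several and 657 none, 9625 IDs matched, and the probe set of highest mean stood for each of 9636 genes. Limma 3.58.1 in R 4.3.3 was fitted to 17 arrays in 6 groups with the replicate number as a block, a variance trend and adjustment by Benjamini-Hochberg. Untreated JAK2V617F+ replicate 3, which the study left out, was left out. The fit had 9 residual degrees of freedom. The block reads the replicate number as 1 of the 3 experiments that the methods describe. The labels do not state this, and the paired tests of the methods are between the genotypes of individual mice. Deviations of same-numbered arrays correlated by 0.054, 0.110 and 0.206, and of others by -0.152 to 0.044, so the data do not settle the pairing.

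Members and lists were chosen with earlier results of these data known, and the respiratory chain and ribosomal lists were trimmed of assembly factors and kinases after the files were read. Named genes were the 12 higher and 12 lower of smallest unadjusted p without overlap, receptor, complex and NF-κB members, 5 genes the study names, up to 3 per direction of other lists, defining markers, the 5 leading genes of each further contrast and the 5 of highest signal. Pmaip1, Jak2 and Fos, besides the genes so described in the text, were chosen after their values were seen. The fit was tested on simulated arrays. Alternative settings were all 18 arrays, no block, only the 6 or 9 arrays, quantile normalization and a mean signal of 6 or more. Others were signals under 4 set to 4, no variance trend, array weights and the mean of all probe sets of a gene. The last were t-tests with and without pairing by replicate number, and leaving out arrays or replicate numbers.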

Additional observations from a re-analysis of the deposited data

Results flagged for a closer look

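A set of 4 results stood out because their differences between TNFR1 BA and untreated cells had opposite signs in JAK2V617F- and JAK2V617F+ cells. For Psmb7 the difference of the effects was -3.05 on the log2 scale and passed the test of the difference itself (limma adjusted p = 0.0195). For Alg12 (8.80), Cox6b2 (-4.90) and Aamdc (-7.16), all 3 pairs of JAK2V617F- cells had one sign and both pairs of JAK2V617F+ cells the other, and the difference did not pass adjustment (limma adjusted p = 0.705 for each). These 3 genes had been selected for their difference in JAK2V617F- cells, and the JAK2V617F+ side has 2 pairs. In JAK2V617F+ cells, pair 1 differed by only -0.04 for Alg12 and 0.06 for Cox6b2, so their opposite sign there rests on pair 2, at -5.98 and 1.65, while Aamdc differed by 1.41 and 2.34. With 3 arrays per group, no array was examined for standing apart from its group.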

How the results depend on the processing

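Between TNFR1 BA and untreated JAK2V617F- cells, 0 probe sets passed an adjusted p of 0.05 in each alternative except 1, where signals under 4 were set to 4 and Chd9 was called higher (1 probe set, limma adjusted p = 0.0109). With no replicate block, 0 were called and 147 were higher and 238 lower at an unadjusted p under 0.05. Leaving out arrays or replicate numbers gave 133 to 192 higher and 207 to 322 lower. A t-test over pairs of the same replicate number gave 171 higher and 260 lower, and 0 after Benjamini-Hochberg. Among probe sets with a mean signal of 6 or more, 71 were higher in this comparison, 98 were above 0 in the difference between genotypes and 94 were higher than with TNFR2 BA. Fewer probe sets were tested there. In the difference between genotypes, 0 passed below 0 with no replicate block and 0 to 1 when arrays were left out, 269 to 722 had an unadjusted p under 0.05 below 0 when arrays were left out, and 1 passed above 0 with signals under 4 set to 4. Psmb7 was also lost without a variance trend (limma adjusted p = 0.578), where 1 other probe set passed below 0. Cry2 passed in 1 of 7 alternatives that left out no array or replicate number (limma adjusted p = 0.0255). TNFR1 BA against TNFR2 BA gave 1 higher with signals under 4 set to 4 and 0 to 1 when arrays were left out, the 1 being without replicate 1. The causes were not tested.

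The 24 genes of smallest p kept their sign in 467 of 467 alternative values, 1 of which passed the threshold. Of 39 pathway genes, which were not called, 24 changed sign when some array was left out, as did 47 of all 130 named genes. List medians stayed within their spread in 185 of 252 alternatives, and 15 of 21 lists had at least 1 outside it. Where a group was at the lowest value, the size of its difference is limited by that value.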

Other observations

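Psmb7 belongs to the 20S proteasome, whose subunits were looked at after its value had been seen and were given no test. Over 17 measured subunits, the median difference between TNFR1 BA and untreated cells was -0.10 in JAK2V617F- cells, with 10 below 0, and 0.41 in JAK2V617F+ cells, with 4 below 0. The difference of the effects between JAK2V617F- and JAK2V617F+ cells was below 0 for 13 of the 17, and 3 of the 17 had an unadjusted p under 0.05 for it in limma. Without Psmb7, which prompted the list, these counts were 12 and 2 of 16, the 2 below 0, beside 4.1% of all probe sets below 0 and 1.95% above at that p.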
